A study of Homo sapiens with 4 samples.

Results

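The AlkB family of human dioxygenases was examined in HaCaT keratinocytes given ALKBH5 siRNA. The family was taken as the genes listed under the names ALKBH1 to ALKBH8 and FTO, which are 9 of the 58735 genes in the deposited expression tables. All 9 were present with raw counts in every library. HaCaT is an established line of spontaneously immortalised human keratinocytes. The siControl cells were transfected with a negative control siRNA and the siALKBH5 cells with an siRNA against ALKBH5, in both cases by lipofection, and poly-A RNA was sequenced from 2 libraries per group. All 4 libraries therefore come from transfected cells of the same line, and no untransfected cells enter the comparison. The labels do not say which ALKBH5 siRNA was used for sequencing, at which time RNA was taken, or whether the 2 libraries of a group came from separate cultures, so p-values measure the spread between these libraries, which may be technical.

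AlkB enzymes use iron, oxygen and 2-oxoglutarate to oxidise a methyl or alkyl group. In many of their reactions the oxidised group then leaves the base or side chain that carried it. ALKBH5 and FTO remove the methyl group of N6-methyladenosine (m6A) from RNA, which makes them the erasers of this mark, while other members repair alkylated DNA, modify tRNA or act on proteins. In the epidermis, m6A is known to take part in keratinocyte growth and differentiation, and the series asks which mRNAs change in keratinocytes when ALKBH5 is depleted. The question addressed here is what happened to the other members of its family.

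The study designed 2 siRNAs against ALKBH5, and both are shown because they define where the knockdown acts and can be compared with the other members. In the antisense strands the capitals mark the seed (bases 2 to 8 from the 5′ end). In the targets the capitals mark the 19 bases matched by the siRNA, with 5 flanking bases on each side, read 5′ to 3′ on the plus strand of GRCh38.
ALKBH5-si1 antisense: uCGCCGAAgaaguacuugu
ALKBH5-si1 target: gcgcaACAAGTACTTCTTCGGCGAaggct
ALKBH5-si2 antisense: uAGUCGUUgaugacggcgc
ALKBH5-si2 target: caacaGCGCCGTCATCAACGACTAccagc
The target of ALKBH5-si1 lies at chr17:18184635-18184653, in exon 1 of the 4 exons of the principal ALKBH5 transcript, at bases 392 to 410 of the 1185 bases of its coding sequence. The target of ALKBH5-si2 lies in the same exon at chr17:18184809-18184827, at coding bases 566 to 584. Each target matched exactly 1 transcript of 1 gene, ALKBH5, in GENCODE 29. In the other 8 family members the closest stretch to ALKBH5-si1 had 5 mismatches of 19 bases, in ALKBH7, and the closest stretch to ALKBH5-si2 also had 5, in ALKBH3. The 7-base sites complementary to the seeds, TTCGGCG and AACGACT, occurred 1 time each in the principal ALKBH5 transcript and 0 times in the principal transcripts of the other 8 members. These are matches of letters only, and activity of the siRNAs on other transcripts was not measured here.

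**Figure D1:**
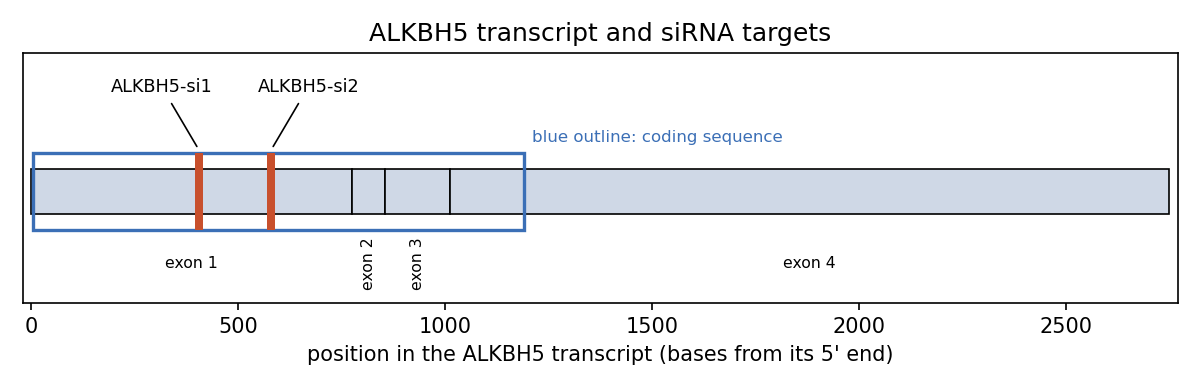
Map of the principal ALKBH5 transcript (x axis, bases from the 5′ end, 2748 in all) with its 4 exons as filled boxes, the coding sequence outlined in blue and the 2 siRNA targets in red. Both targets lie in the coding part of exon 1, at transcript bases 397 to 415 and 571 to 589.

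Library totals were between 16017502 and 18837807 counts on genes, and mitochondrial genes took 9.63% to 10.2% of them. Counts were scaled with TMM to CPM, counts relative to a common library size, and 15075 genes passed the expression filter of edgeR. A gene was called when edgeR's quasi-likelihood test gave a Benjamini-Hochberg adjusted p under 0.05. Against the labelled cell type, all 6 keratinocyte markers were at 10 CPM or more in every library. Their sum was 15635 to 16050 CPM in siControl and 21664 to 21697 CPM in siALKBH5, with KRT5 (log2 fold change 0.68), KRT6A (0.63), KRT14 (0.22) and SFN (0.22) higher, TP63 (-0.09) lower and LAMB3 (-0.03) not called. The simple epithelium keratins KRT8 (0.50) and KRT18 (0.20) were higher, with sums of 1500 to 1522 CPM and 2084 to 2120 CPM. The differentiation markers had near-equal sums (1687 to 1693 CPM and 1655 to 1689 CPM) but moved in both directions, with KRT1 (0.27) higher, KRT10 (-0.29), IVL (-0.47) and FLG (-0.49) lower and LOR (0.70) not called. Of 5 fibroblast markers, COL1A2 and PDGFRA had 0 counts throughout, COL1A1 stood at 16.2 to 17.2 CPM and DCN was lower (-1.25), and the sums were 19.9 to 21.1 CPM and 17.9 to 18.2 CPM. Of 3 endothelial markers, VWF was higher (0.51), CDH5 was lower (-0.69) and PECAM1 was at or near 0, with sums of 32.5 CPM and 35.0 to 35.5 CPM. The 4 melanocyte markers, with TYR at 0, summed to 2.72 to 3.23 CPM and 3.16 to 3.89 CPM, and the 3 leukocyte markers, of which CD14 was higher (0.64), to 2.30 to 3.06 CPM and 3.83 to 4.23 CPM. The part of these marker shifts in the results below was not tested. GAPDH, often used for scaling, rose from 1815 to 2520 CPM (log2 fold change 0.47, adjusted p = 6.9e-22), so values relative to GAPDH would shift every member downward by that amount.

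In the family, ALKBH5, ALKBH7 and ALKBH8 fell, ALKBH1, ALKBH2, ALKBH3, ALKBH4 and FTO did not pass the test, and ALKBH6 was too low to be tested. Of the 8 tested members, 3 were lower and 0 were higher in siALKBH5. Across all 15075 genes tested, 36.6% were called, 17.3% lower and 19.3% higher, so the share of the family that was called (37.5%) was close to the background. Leaving out ALKBH5, the target of the siRNA, 2 of 7 members were called (28.6%). At an unadjusted p under 0.05, 4 of the 8 members were lower, ALKBH5 among them, and 0 higher. The share of all genes at that threshold was not computed. It is at least the 36.6% called after adjustment, so this count is a description only. With DESeq2, 2 members were called lower and 0 higher, beside 1431 lower and 2052 higher of 27826 genes with a p-value. These include genes without an adjusted p, such as ALKBH6, which could not be called, so they give no background share. The median log2 fold change of the 8 members was -0.18, or -0.08 without ALKBH5, beside -0.01 for all genes. No member passed the 2-fold threshold that the methods of the study add to the adjusted p, which 2.92% of all genes did (1.30% lower).

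**Figure D2:**
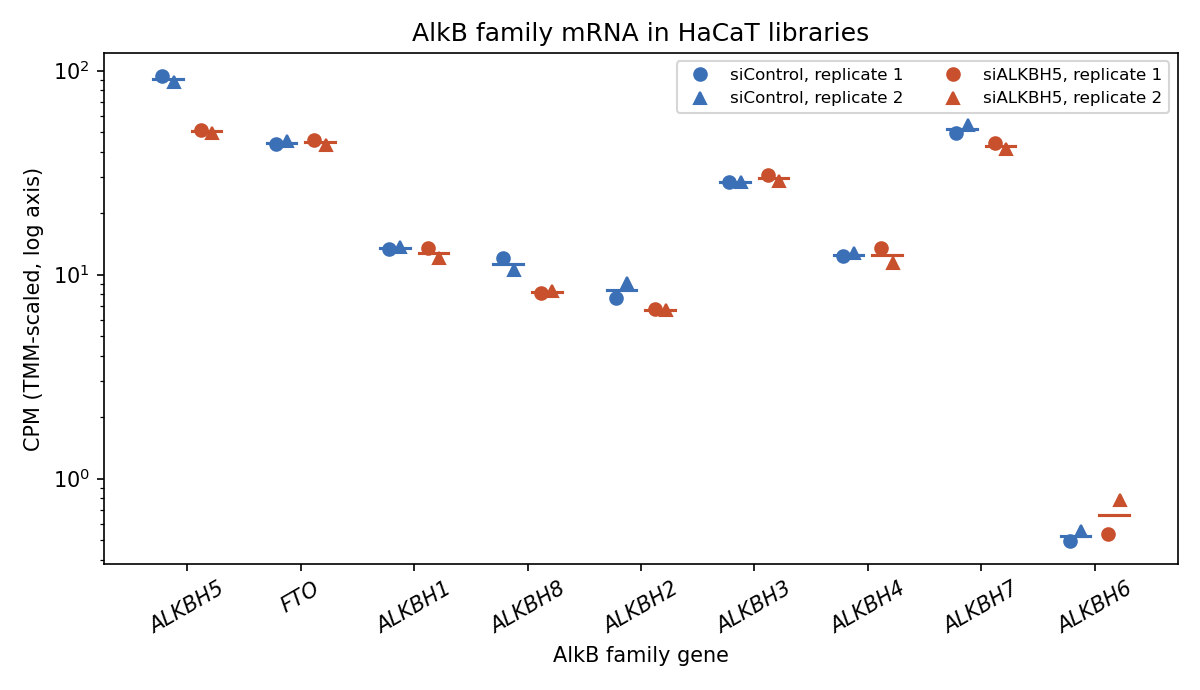
CPM of the 9 AlkB family genes on a log axis, with siControl in blue, siALKBH5 in red, circles for replicate 1, triangles for replicate 2 and lines for the means of 2 libraries. The ALKBH5, ALKBH7 and ALKBH8 points of siALKBH5 lie below both siControl points, FTO overlaps between the groups, and ALKBH6 stays under 1 CPM.

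ALKBH5 (ENSG00000091542, chr17:18183078-18209954), the m6A eraser that was targeted, stood at 93.8 and 87.6 CPM in the siControl libraries and at 51.2 and 49.6 CPM in the siALKBH5 libraries. The groups were far apart and each pair of replicates lay close together. The remaining level was 55.5% of siControl, with a 95% interval of 51.7% to 59.9% (log2 fold change -0.85, standard error 0.05, adjusted p = 6.4e-15 by edgeR's quasi-likelihood test). Among all tested genes 2.73% had a log2 fold change at or below that of ALKBH5. Same-numbered libraries differed by -0.87 and -0.82 on the log2 scale, with the replicate numbers taken as names only. In bulk RNA, a lower level in every cell and a loss in part of the cells cannot be told apart. The antisense transcript AC087164.1, which overlaps 357 bases (13%) of the principal ALKBH5 transcript on the other strand, was seen with 6 and 1 reads in siControl against 1 and 1 in siALKBH5, beside 816 to 1576 counts of ALKBH5.

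FTO (ENSG00000140718, chr16:53701692-54158512), the other m6A eraser of the family, stood at 43.8 and 45.0 CPM in siControl and at 45.8 and 43.2 CPM in siALKBH5. The 2 groups overlapped entirely, and both siControl values lay between the siALKBH5 values. Differences between same-numbered libraries were 0.07 and -0.06 on the log2 scale, with the numbers taken as names only. The interval of the difference placed FTO in siALKBH5 between 91.6% and 110% of siControl, and changes within those bounds were not detectable at this depth. The RPGRIP1L gene, which starts on the opposite strand within FTO and overlaps it by 2247 bases, had a log2 fold change of 0.05 (adjusted p = 0.83).

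The 2 erasers were also set against each other within each library. Per library, there were 2.14 and 1.95 ALKBH5 counts for each FTO count in siControl and 1.12 and 1.15 in siALKBH5. This ratio does not depend on how libraries are scaled, and it averaged 2.05 ± 0.139 in siControl against 1.13 ± 0.0209 in siALKBH5 (SD, n = 2 each). All values of one group lay above all values of the other, but with 2 libraries against 2 the exact two-sided permutation test cannot go below p = 0.333, the value it gave. ALKBH5 supplied 35.9% and 33.5% of all AlkB family counts in siControl and 23.9% and 24.5% in siALKBH5. The family without ALKBH5 summed to 167.5 and 174.0 CPM in siControl and to 163.2 and 152.8 CPM in siALKBH5. The sum of the other members was thus lower in both siALKBH5 libraries than in both siControl libraries, with no test made of this sum. Among single genes tested, 66.3% had groups that did not overlap, in either direction. Within the sum, ALKBH7 went from a mean of 51.8 to 42.8 CPM, while FTO (44.4 and 44.5 CPM) and ALKBH3 (28.4 and 29.9 CPM) did not fall.

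**Figure D3:**
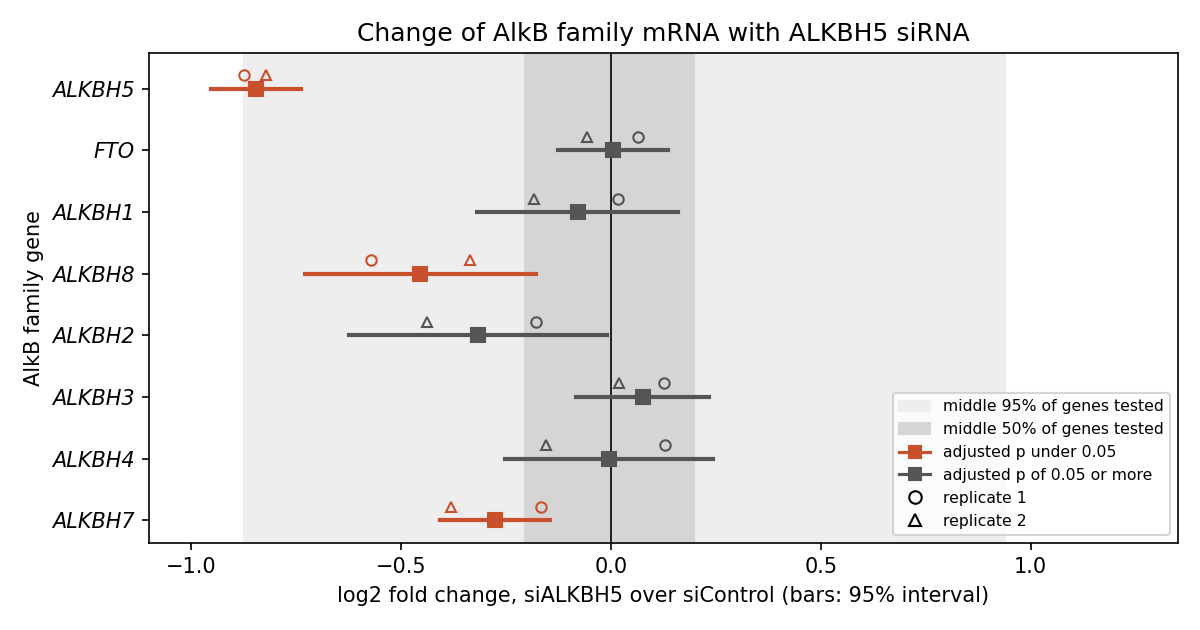
Log2 fold change of siALKBH5 over siControl for the 8 tested members (squares, edgeR) with 95% intervals (bars). Open circles and triangles show the difference between same-numbered libraries, with the numbers taken as names only. Grey bands are the ranges that hold the middle 50% and 95% of all genes tested. ALKBH5, ALKBH8 and ALKBH7 (red) had an adjusted p under 0.05, and the interval of FTO spanned -0.13 to 0.14 around 0.

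ALKBH8 and ALKBH1 act on tRNA. ALKBH8 (ENSG00000137760, chr11:107502726-107565746) carries both an AlkB domain and a methyltransferase domain and completes wobble uridine modification in the anticodon of certain tRNAs. Its level was 12.1 and 10.5 CPM in siControl and 8.14 and 8.32 CPM in siALKBH5. The siALKBH5 libraries lay close together and below both siControl libraries, of which replicate 1 was the higher. ALKBH8 fell to 72.8% of siControl, with an interval of 60.3% to 88.3% (log2 fold change -0.45, standard error 0.14, adjusted p = 0.0080 by edgeR's quasi-likelihood test). This call rested on the siControl library of replicate 1: without it the log2 fold change was -0.35 and the adjusted p 0.106, and DESeq2 gave -0.45 with an adjusted p of 0.0677.

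ALKBH1 (ENSG00000100601, chr14:77672404-77708020) demethylates tRNA and takes part in oxidising the wobble cytosine of a mitochondrial tRNA. Its level was 13.3 and 13.7 CPM in siControl and 13.5 and 12.0 CPM in siALKBH5, and the groups overlapped. The log2 fold change was -0.08 (interval -0.32 to 0.16, adjusted p = 0.64 by edgeR's quasi-likelihood test). SLIRP, a mitochondrial RNA-binding protein gene whose 5′ end lies 51 bases from that of ALKBH1 on the opposite strand, rose from 39.1 ± 1.31 to 46.0 ± 0.198 CPM (SD, n = 2 each, log2 fold change 0.23, adjusted p = 0.0052). Whether the genes on the 2 sides of this start region differed in their change was not tested.

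ALKBH2 and ALKBH3 are the DNA repair enzymes of the family and reverse methylation on adenine and cytosine directly, ALKBH2 mainly in duplex DNA and ALKBH3 mainly on unpaired strands and RNA. ALKBH2 (ENSG00000189046, chr12:109088188-109093631) had 7.70 and 9.06 CPM in siControl and 6.80 and 6.68 CPM in siALKBH5. The groups did not overlap, as was the case for 66.3% of all tested genes in either direction. The log2 fold change of -0.32 (interval -0.62 to -0.01) had an unadjusted p of 0.0437 and an adjusted p of 0.102 by edgeR's quasi-likelihood test, so ALKBH2 was not called.

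ALKBH3 (ENSG00000166199, chr11:43880811-43920266) had 28.4 CPM in both siControl libraries and 30.9 and 28.8 CPM in siALKBH5. The groups did not overlap, but the lower siALKBH5 library stood just above the siControl libraries. The log2 fold change was 0.08 (interval -0.08 to 0.23, adjusted p = 0.48 by edgeR's quasi-likelihood test), which bounds ALKBH3 in siALKBH5 between 94.4% and 118% of siControl. Its antisense neighbour ALKBH3-AS1 was counted 12 and 11 times in siControl against 10 and 4 times in siALKBH5.

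ALKBH4 and ALKBH7 have roles on proteins or in mitochondria. ALKBH7 (ENSG00000125652, chr19:6372433-6375251) is a mitochondrial member linked to programmed necrosis after alkylation damage. It had 49.5 and 54.1 CPM in siControl and 44.1 and 41.5 CPM in siALKBH5. Both siALKBH5 values lay below both siControl values. Same-numbered libraries differed by -0.17 (replicate 1) and -0.38 (replicate 2) on the log2 scale, with the numbers taken as names only. ALKBH7 fell to 82.6% of siControl, with an interval of 75.5% to 90.5% (log2 fold change -0.28, standard error 0.06, adjusted p = 9.0e-04 by edgeR's quasi-likelihood test). The call was lost (adjusted p = 0.0897) with limma on log2(FPKM + 1) without a filter, which also lost the call of ALKBH8. PSPN, which overlaps the end of ALKBH7 by 104 bases on the other strand, had a log2 fold change of -0.41 (adjusted p = 0.0795), with 76 to 111 counts per library. Since the strand setting of the counting is not given in the sources used here, reads from the shared bases cannot be told apart.

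ALKBH4 (ENSG00000160993, chr7:102456238-102464876), which demethylates a lysine of actin, had 12.3 and 12.7 CPM in siControl and 13.4 and 11.4 CPM in siALKBH5. Both siControl values lay between the siALKBH5 values, and the log2 fold change was -0.01 (interval -0.25 to 0.24, adjusted p = 0.98 by edgeR's quasi-likelihood test). LRWD1, whose 5′ end lies 53 bases from that of ALKBH4 on the opposite strand, had 0.19 (adjusted p = 0.10), and ORAI2, which shares 584 bases (27.7%) with the principal ALKBH4 transcript on the opposite strand, had 0.11 (adjusted p = 0.52).

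ALKBH6 (ENSG00000239382, chr19:36009120-36014239), whose substrates are the least defined in the family, was counted 8 and 10 times in siControl, against 10 and 13 times in siALKBH5. It did not pass the expression filter, and its CPM of 0.526 ± 0.0419 and 0.663 ± 0.180 (SD, n = 2 each) overlapped between the groups. Without the filter, its log2 fold change was 0.32 with an interval of -0.74 to 1.38 (adjusted p = 0.73 by edgeR's quasi-likelihood test), so changes within that interval were not detectable at this depth. Its annotation overlaps that of another gene. Of the 973 bases of the principal ALKBH6 transcript, 834 (85.7%) lie in exons of AC002116.1, a processed transcript on the same strand with 0 counts in all 4 libraries, and 139 do not. Over all its transcripts ALKBH6 shares 25.1% of its exonic bases. Of protein-coding genes, 1464 share 10% to under 90% of their exonic bases in this way. Of these, 488 (33.3%) had a mean of at most 3 counts, beside 30.3% of genes that share under 10%. Their median mean count was 20, however, beside 137.6 for genes that share under 10%. ALKBH6, with 8 to 13 counts, stood above 3 counts in every library. Among the 475 genes that share at least 90%, 96.8% had a mean of at most 3 counts. These classes use all exonic bases, so they place ALKBH6 by its 25.1% and not by the 85.7% of its principal transcript. The part of the overlap with AC002116.1 in the ALKBH6 count was not tested, and the ALKBH6 level is uncertain.

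In all, 19 listed genes overlapped a family member or started within 1 kb of its start. Of these, 7 could be tested, 1 was higher (SLIRP) and 0 were lower by edgeR's quasi-likelihood test, with LRWD1 and PSPN at an unadjusted p of 0.0437 and 0.0322. This is 14.3% of the tested neighbours, beside 36.6% of all genes. The difference between the 2 shares was not tested, and the neighbours were not matched to all genes by counts. Of the tested neighbours, SEC14L1P1 and ALKBH3-AS1 had only 4 to 16 counts per library. Both passed the expression filter only through siControl, the group where they are high. The 12 neighbours that were not tested had at most 9 counts in any library, and 6 of them had 0 throughout.

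Levels were compared between members per length. With the gene length listed in the tables, ALKBH7 (35.8 ± 2.27 FPKM) and ALKBH5 (28.6 ± 1.38 FPKM) led in siControl (SD, n = 2 each). They were followed by ALKBH3 at 12.0 FPKM, ALKBH4 at 5.44, ALKBH1 at 4.78, ALKBH2 at 3.68, ALKBH8 at 2.52, FTO at 2.09 and ALKBH6 at 0.123 FPKM. The highest level was 290.3 times the lowest, that of ALKBH6, and 71.9 times with the principal transcript length, and the ALKBH6 level is uncertain. No neighbours in this order overlapped in siControl, although the order below ALKBH3 depended on the length. The listed length of FTO, 21379 bases, is the union of the exons of 23 transcripts, whereas its principal transcript has 11766 bases and a coding sequence of 1518. With the length of each principal transcript, an alternative chosen after seeing the data, FTO stood at 3.79 FPKM, above ALKBH8 at 2.79 FPKM. ALKBH2 stood at 8.18 FPKM, above ALKBH4 at 5.98 and ALKBH1 at 5.24 FPKM. In siALKBH5, ALKBH5 kept its place behind ALKBH7 with the listed length, at 15.7 ± 0.365 FPKM beside 12.5 ± 0.644 FPKM for ALKBH3 (SD, n = 2 each). With the principal transcript it stood at 18.2 FPKM, below ALKBH3 at 20.1 FPKM, so which of the 2 was more abundant after knockdown depended on the length used.

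**Figure D4:**
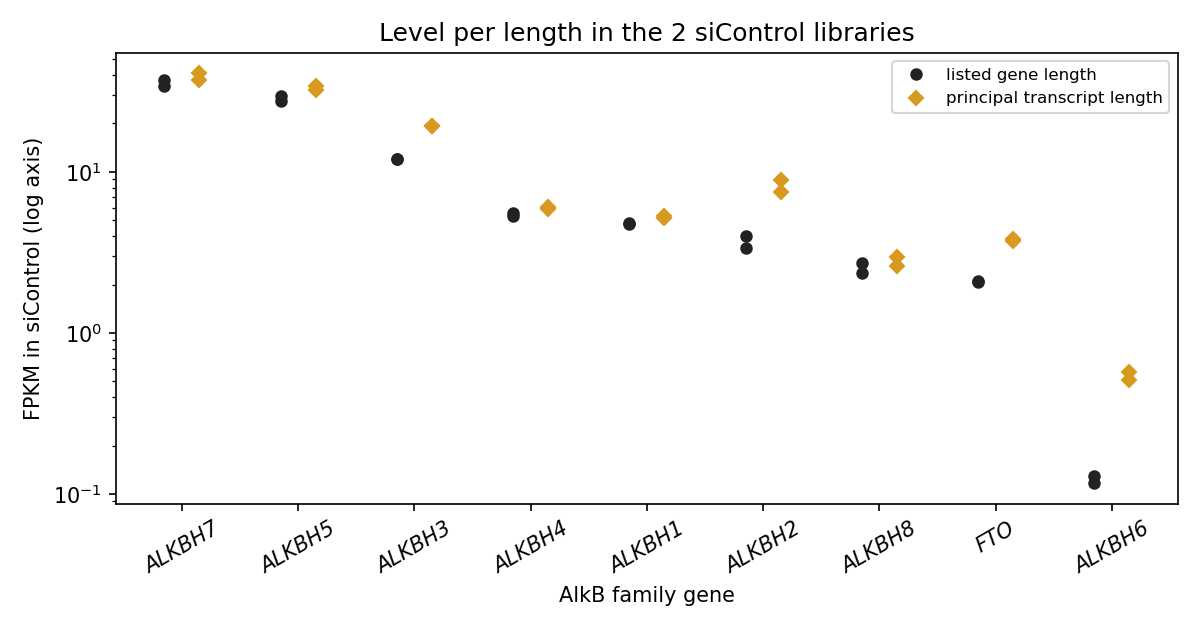
FPKM of the 9 members in the 2 siControl libraries on a log axis, computed with the listed gene length (circles) or the principal transcript length (diamonds). ALKBH7 and ALKBH5 lead with either length, and ALKBH2 and FTO move up with the principal transcript length.

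Genes that work with the AlkB enzymes or share their chemistry were counted in 6 lists, each read against the 36.6% of all genes that were called. Over all genes, 5523 were called, against 4327 to 4652 with each library left out and 3483 with DESeq2, so the counts of a list under those settings are read beside fewer calls in all. Among 9 m6A writers, the methyltransferase subunits that place the mark, 2 fell and 0 rose in edgeR's quasi-likelihood test. METTL14, the RNA-binding partner of the catalytic subunit, had a log2 fold change of -0.34 (adjusted p = 0.0030) and WTAP, the adaptor of the complex, one of -0.23 (adjusted p = 0.0010). Of 10 m6A readers, proteins that bind the mark, 9 were tested (IGF2BP1 was not), and 2 fell and 2 rose. YTHDF3 (-0.23) and YTHDC1 (-0.18) were lower, and HNRNPC (0.22) and IGF2BP3 (0.17) were higher. Without the siControl library of replicate 2, 1 writer and 1 reader were called, and without the siALKBH5 library of replicate 2, 2 readers were.

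Of 15 genes of alkylation repair and AlkB partners, 3 fell and 5 rose. The lower genes were OTUD4 (log2 fold change -0.30), a deubiquitinase that stabilises ALKBH2 and ALKBH3, the uracil glycosylase UNG (-0.22), and ASCC3 (-0.13), the helicase that works with ALKBH3. The highest were ASCC2 (0.26), which belongs to the same complex as ASCC3, the DNA ligase LIG3 (0.25) and the sliding clamp PCNA (0.25), which ALKBH2 binds. ASCC2 and ASCC3 therefore moved in opposite directions while ALKBH3 was not called. Without either siControl library, 5 of the 15 genes were called, and DESeq2 also called 5.

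Among 15 genes of tRNA wobble modification around ALKBH1 and ALKBH8, 2 fell and 2 rose. CTU1 (log2 fold change -0.40), which adds sulphur to wobble uridine, and the tRNA ribose methylase FTSJ1 (-0.29) were lower. ELP6 (0.44), a subunit of the Elongator complex that starts the wobble uridine pathway, and TRMT112 (0.16), the partner protein of ALKBH8, were higher. Within this pathway ALKBH8 and its partner were thus called in opposite directions, with ALKBH8 at -0.45.

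Of 16 genes that make or remove 2-oxoglutarate, the cosubstrate of all AlkB enzymes, 2 fell and 9 rose, so 68.8% were called. IDH2 (log2 fold change 0.69, adjusted p = 5.4e-10), the mitochondrial isocitrate dehydrogenase, held 489 and 545 counts in siControl against 933 and 785 in siALKBH5. PSAT1 (0.46) of serine synthesis and the aspartate aminotransferase GOT1 (0.43) were next. BCAT1 (-0.39), a branched-chain aminotransferase, and D2HGDH (-0.26), which oxidises 2-hydroxyglutarate to 2-oxoglutarate, were lower. Without the siALKBH5 library of replicate 1, 7 of the 16 were called, the number DESeq2 gave as well. The median of this list was 0.10, beside -0.01 for all genes tested. Some called genes had high counts and small changes, such as IDH1 (0.11, with 8430 to 10518 counts per library) and IDH3B (0.09). The share of 68.8% was not compared with genes of like counts.

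Outside the AlkB family, 39 of 42 other 2-oxoglutarate dioxygenases were tested, and 5 fell and 12 rose (43.6%). The oxygen sensor EGLN1 (log2 fold change -0.57), the histone demethylase KDM3A (-0.44) and the collagen prolyl hydroxylase P4HA1 (-0.34) were lower. EGLN3 (1.78, adjusted p = 0.021), P3H1 (0.56) and P3H2 (0.41), the last of which are both collagen prolyl hydroxylases, were higher. EGLN3 rested on 3 and 5 counts in siControl against 17 and 12 in siALKBH5, and it was the only gene of the 6 lists to pass the 2-fold threshold. It passed the expression filter only through siALKBH5, the group where it is high, so its call is a description only. Without the siALKBH5 library of replicate 2, 11 of these dioxygenases were called. Whether the AlkB family differed from any of the 6 lists was not tested.

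**Figure D5:**
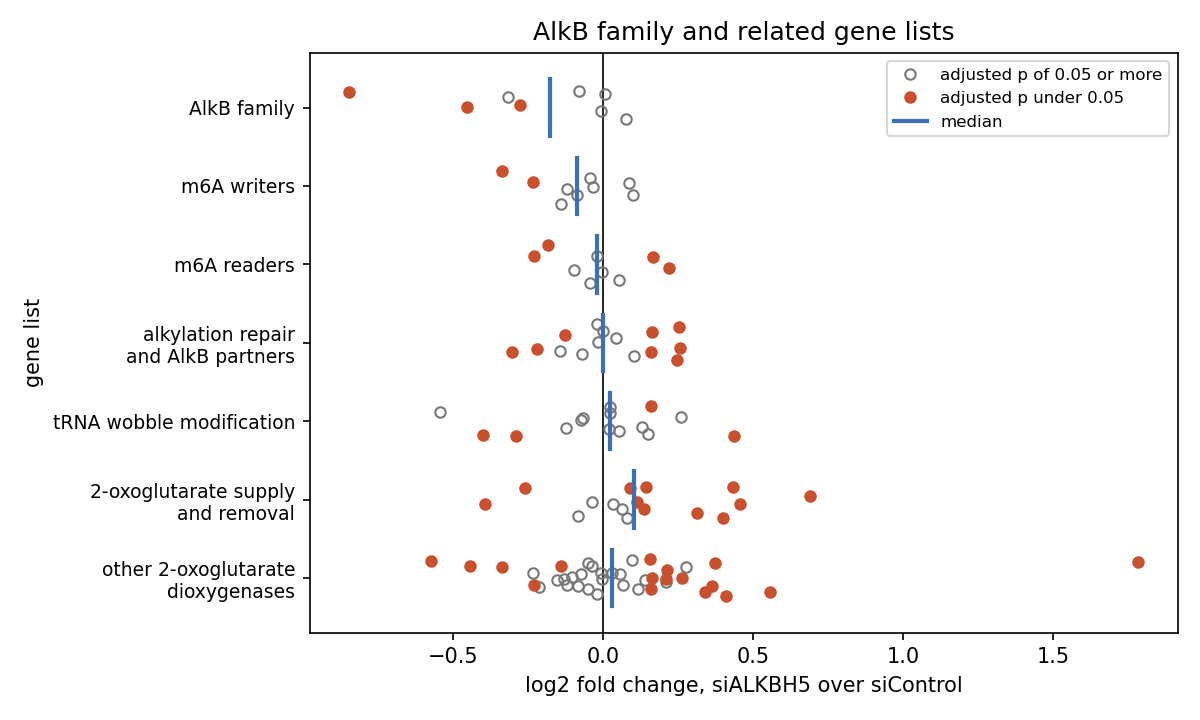
Log2 fold change of siALKBH5 over siControl for every tested gene of the AlkB family and of 6 related gene lists, with filled red points for an adjusted p under 0.05, open grey points for the others and a blue line at each median. The 3 called AlkB genes lie at -0.85 (ALKBH5), -0.45 (ALKBH8) and -0.28 (ALKBH7). In the list of 2-oxoglutarate supply 9 of 11 called genes lie above 0.

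The genes with the pattern closest to ALKBH5 and FTO over the 4 libraries were found by the Euclidean distance between log2 CPM values centred on each gene's mean. For ALKBH5 these were SOX4 (distance 0.05), ALS2CR12 (0.05) and LEAP2 (0.07). SOX4, a transcription factor, stood at 34.3 and 31.0 CPM in siControl and 18.4 and 17.3 CPM in siALKBH5, and had a log2 fold change of -0.86 beside -0.85 for ALKBH5. For FTO they were RARS2 (0.0071), ECD (0.0091) and ANAPC5 (0.014), each with a log2 fold change between 0.00 and 0.02. With 4 points per gene and 15075 genes, such closeness is a description only.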

How the data were processed

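Poly-A RNA of HaCaT cells was sequenced on a NovaSeq platform. Per the labels, the authors aligned reads with HISAT2 2.0.5 to hg38 and counted them per gene with featureCounts 1.5.0-p3, and the settings for strand and overlapping genes are not given in the sources used here. The deposited tables, 1 per replicate, hold raw counts and FPKM of 1 siControl and 1 siALKBH5 library. The deposited FPKM were scaled by the authors within each table and were replaced by FPKM recomputed from counts, listed gene lengths and library totals. The deposited log2 fold change and p-value columns compare 1 library with 1 and were not used. All 58735 identifiers and coordinates were those of GENCODE 29.

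The 4 libraries were fitted together in R 4.3.3 with edgeR 4.0.16 (filterByExpr, TMM, glmQLFit, glmQLFTest, no covariates) on all genes, with Benjamini-Hochberg adjustment over 15075 genes. The fit gave a common biological coefficient of variation of 0.0253. Intervals are 95% intervals of the fit. Replicates of a group differed beyond counting noise (chi-square per degree of freedom 1.71 in siControl and 1.81 in siALKBH5). The scripts were tested on simulated data. Alternatives were DESeq2 1.42.0, other scaling and filters, limma 3.58.1 on log2 FPKM with a pseudocount of 1 or 0.1 and a variance trend on mean counts, a replicate block and each library left out.

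The members and gene lists were chosen with earlier results of these data known. Named genes are the members, genes overlapping them or starting within 1 kb (given singly where a value bears on a member, otherwise as counts), the 3 nearest patterns of ALKBH5 and of FTO, up to 3 lower and 3 higher called genes per list, cell type markers and GAPDH. siRNA targets were searched in GENCODE 29 transcripts.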

Additional observations from a re-analysis of the deposited data

How the results depend on the processing

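ALKBH5 was called lower under 13 of 13 alternatives (log2 fold change -0.90 to -0.79), ALKBH7 under 12 and ALKBH8 under 10, and ALKBH1, ALKBH2, ALKBH3, ALKBH4 and FTO under 0 of 13. Limma on log2(FPKM + 1) without a filter left 1 member lower (ALKBH7 with an adjusted p of 0.0897 and ALKBH8 with 0.0849), and the 2-fold threshold left 0. ALKBH8 also lost its call under DESeq2 and without siControl replicate 1. Members near no change turned sign without being called: FTO to -0.017 with library size only, -0.012 and -0.017 with limma at pseudocounts of 1 and 0.1, -0.012 with limma unfiltered and between -0.037 and 0.047 with each library left out, ALKBH4 to 0.0013 without a filter and between -0.13 and 0.10 with libraries left out, and ALKBH1 between -0.17 and 2.7e-05.

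Called genes in the lists moved beyond 1.5 times under these settings, while calls over all genes went from 5523 to 2274 with limma without a filter, to 3483 with DESeq2, to 440 with the 2-fold threshold and to between 4327 and 4652 with each library left out. Limma without a filter gave 1 m6A writer, 1 reader, 2 repair genes, 0 wobble genes, 5 genes of 2-oxoglutarate supply and 6 other dioxygenases. The 2-fold threshold gave 1 other dioxygenase, EGLN3, and 0 in each remaining list. DESeq2 gave 2 readers, 5 repair genes and 7 genes of 2-oxoglutarate supply. With each library left out in turn, lower members numbered 2 to 3 and higher members 0, called writers 1 to 2, readers 1 to 3, repair genes 5 to 6, wobble genes 3 to 5, 2-oxoglutarate supply 7 to 10 and other dioxygenases 11 to 15, and the log2 ratio of ALKBH5 to FTO differed by -0.92 to -0.78 between the groups. The cause of these moves was not tested.

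The replicate number as a block left the same 3 members lower, and its log2 fold changes were -0.85 for ALKBH5, -0.27 for ALKBH7 and -0.46 for ALKBH8; it changed no other member's call. Same-numbered libraries hardly deviated together (r = 0.034 across genes), so with 2 pairs the numbers were taken as names only. With 2 libraries per group, changes smaller than about the printed intervals were not detectable, and counting depth limits ALKBH6 most.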
